A study of Mus musculus with 6 samples.

Results

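The Zfp genes are mouse genes named for a zinc finger protein and a number. They were taken as every gene whose symbol is Zfp followed by a number and at most 1 letter, among probes annotated with exactly 1 gene, leaving out Zfp42. Probes at exactly 0 on all 6 arrays were dropped, which removed 1 of 93 probes and with it Zfp111, and the probes of a gene were averaged. This left 70 Zfp genes, measured by 92 probes, of 4742 genes in all. A further 207 probes carry a Zfp gene together with other genes and were not used.

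The samples were parthenogenetic mouse embryos, grown from eggs activated at metaphase of the second meiotic division without sperm. In the cycloheximide group (3 arrays; the labels write cyclohexamide) eggs were activated with an inhibitor of protein synthesis, and in the strontium group (3 arrays) with strontium chloride, which makes the egg release calcium. Both groups also received cytochalasin D, which keeps the polar body inside the egg, and both were cultured in KSOM medium for 60 h. The labels give no mouse strain, and nothing in them ties the 3 arrays of a group to separate cultures; p-values therefore cover the spread among these arrays alone, which may be technical. Each embryo channel (Cy3) held the mRNA of 25 embryos after 2 rounds of amplification. The other channel (Cy5) held Universal Mouse Reference RNA, a commercial pool, after 1 round, on every array. A level below is log2 of the embryo signal over the reference signal, so that 1 stands for a 2-fold higher signal in the embryo channel. The direction was taken as likely from the dyes and the scanner software's convention of red over green; were it the opposite, every sign would turn. Dye and amplification rounds differed between the channels on every array in the same way, so neither can be told apart from a difference between embryo and reference RNA. In such bulk samples fewer cells of a type and less RNA per cell cannot be told apart either.

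Most Zfp proteins bind DNA through tandem C2H2 zinc fingers, small folds held together by a zinc ion between cysteines and histidines. Many carry a KRAB domain, which recruits the corepressor Trim28 (KAP1) and, through it, the histone methyltransferase Setdb1 and heterochromatin proteins; in the early embryo this pathway silences retroviral elements and protects imprinted marks. The name is not a function, however: among the measured genes Zfp598 encodes a ubiquitin ligase that senses collided ribosomes, Zfp622 a factor of ribosomal subunit maturation, and Zfp185 an actin-associated protein with a LIM domain.

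The starts of 4 Zfp genes are shown because these genes mark both ends of the range of levels described next: Zfp740 and Zfp710 the embryo side, Zfp119a and Zfp386 the reference side. Each line is the 250 bases before the annotated start, 5′ to 3′, from RefSeq (GRCm38.p6). The stretches lie at chr15:102203750-102203999 on the plus strand for Zfp740, chr7:80024564-80024813 on the plus strand for Zfp710, chr17:55878954-55879203 on the minus strand for Zfp119a and chr12:116047474-116047723 on the plus strand for Zfp386. Capitals mark matches, on either strand, to any of 6 motifs, which may overlap: the GC box (GGGCGG), the CCAAT box (CCAAT), the TATA box (TATAAA), an Ets site (CCGGAAG), an E box (CACGTG) and a Yy1 site (AANATGGCG).
Zfp740: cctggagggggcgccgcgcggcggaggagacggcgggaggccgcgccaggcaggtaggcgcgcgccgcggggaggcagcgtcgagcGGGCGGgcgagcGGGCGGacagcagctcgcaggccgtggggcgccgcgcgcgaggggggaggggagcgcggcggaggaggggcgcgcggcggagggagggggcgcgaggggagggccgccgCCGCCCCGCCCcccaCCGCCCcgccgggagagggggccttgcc
Zfp710: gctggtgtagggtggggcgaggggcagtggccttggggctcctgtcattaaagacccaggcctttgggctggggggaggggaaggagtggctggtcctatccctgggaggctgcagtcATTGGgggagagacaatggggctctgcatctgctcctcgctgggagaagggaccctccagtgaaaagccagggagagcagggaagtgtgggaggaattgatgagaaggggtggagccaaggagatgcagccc
Zfp119a: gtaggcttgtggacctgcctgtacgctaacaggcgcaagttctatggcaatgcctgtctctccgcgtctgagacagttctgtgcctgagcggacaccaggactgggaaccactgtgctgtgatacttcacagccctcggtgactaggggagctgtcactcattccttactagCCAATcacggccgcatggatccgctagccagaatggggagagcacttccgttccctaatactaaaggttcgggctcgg
Zfp386: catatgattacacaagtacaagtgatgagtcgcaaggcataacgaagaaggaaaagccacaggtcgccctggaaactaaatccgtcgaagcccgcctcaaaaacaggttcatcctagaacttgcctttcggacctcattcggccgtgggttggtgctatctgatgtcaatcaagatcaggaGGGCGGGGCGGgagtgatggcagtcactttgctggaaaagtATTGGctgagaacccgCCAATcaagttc
The start of Zfp740 is 86.0% G and C with 44 CpG and 5 matches to the GC box. That of Zfp710 is 62.4% with 2 CpG, no GC box and 1 match to the CCAAT box. The starts of Zfp119a and Zfp386 hold 12 CpG each, with 1 and 2 matches to the CCAAT box, and Zfp386 also has 2 overlapping matches to the GC box. A promoter was listed for 57 of the 70 Zfp genes. Of these 57, 27 (47.4%) held a GC box, against 54.8% of 3779 measured genes and 32.9% of all 27025 promoters of this length. A CCAAT box was present in 25 (43.9%), against 35.1% of measured genes and 34.5% of all promoters; a TATA box in 4 (7.02%), against 8.04% and 13.0%. An Ets site was present in 10 (17.5%), against 11.7% of measured genes and 7.05% of all promoters, a Yy1 site in 3 (5.26%), against 2.12% and 1.12%, and an E box in 4 (7.02%), against 8.12% and 6.05%. Of the 26 with a promoter among the genes later called higher in embryos, 19 (73.1%) held a GC box, and of the 9 called lower, 5 (55.6%). The same shares were not counted over all measured genes called higher or lower, so these are not read as a trait of Zfp genes. These are letter matches and not binding sites, and no test was made on them.

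**Figure D1:**
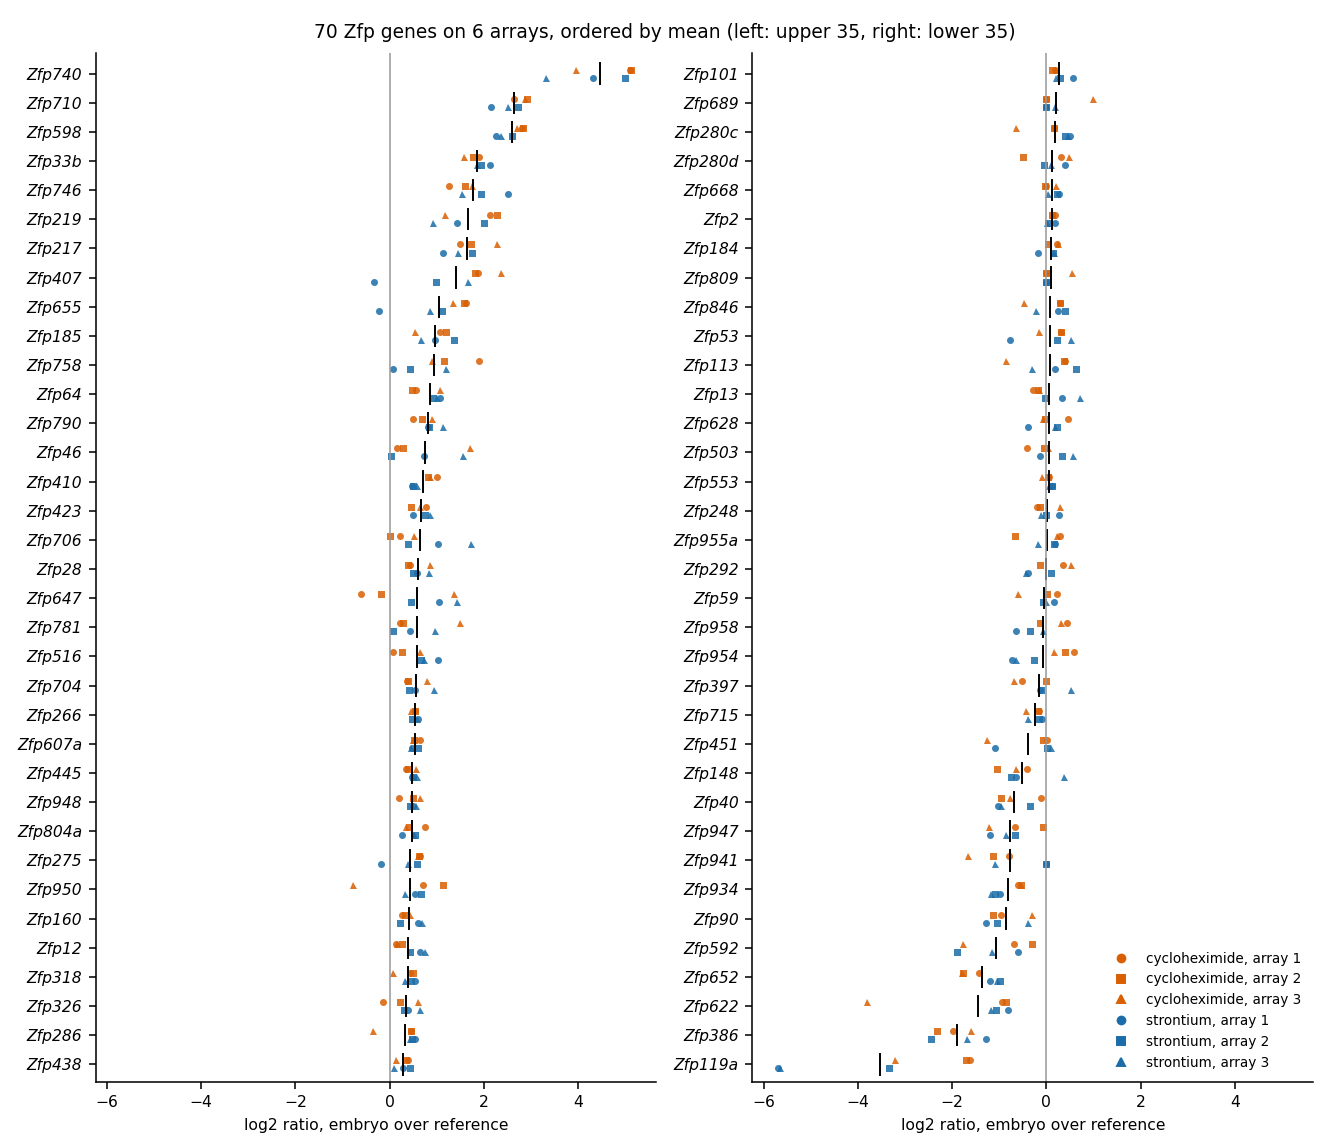
Level of each of the 70 Zfp genes on each array, as log2 of embryo over reference on the horizontal axis; symbols show the array, colours the group, and the black bar is the mean of 6 arrays. A few genes lie far from 0 (Zfp740 at a mean of 4.47, Zfp119a at -3.54), and 35 of the 70 lie within 0.5 of it.

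Against the reference RNA, 32 of the 70 Zfp genes were higher in embryos and 12 were lower, and 26 passed in neither direction (limma, Benjamini-Hochberg adjusted p under 0.05 over 4742 genes; mean of both groups against 0). The shares of Zfp genes were 45.7% and 17.1%, against 39.3% higher and 26.3% lower over all genes (65.6% in either direction). At a level of at least 1 (2-fold), 9 Zfp genes were higher and 5 lower, or 12.9% and 7.14%, against 11.2% and 16.3% of all genes. The 5 lower became 3 without array 3 of cycloheximide and 3 without array 2 of strontium. The median level was 0.27, with quartiles of 0.0012 and 0.59; over all genes the median was 0.16, with quartiles of -0.54 and 0.59. The arrays were not centred: with each array's median set to 0, which lowers the median of all genes from 0.16 to -0.012, 23 Zfp genes were higher and 12 lower, against 28.4% and 31.7% of all genes. The 9 calls lost in that step were those of Zfp706, Zfp781, Zfp275, Zfp160, Zfp12, Zfp318, Zfp326, Zfp438 and Zfp101. The test against 0 leaves out the spread of the reference itself.

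As a check of the labels, 9 of 19 listed markers of oocyte, pluripotency and trophectoderm were measured. Of these, 5 (55.6%) were higher in embryos and 0 lower, against 39.3% and 26.3% of all genes. Those higher were Tdgf1, Dppa3 (6.0), Dppa2 (4.09), Dppa4 (2.71) and Nanog (0.66), with 6 of 6 values of Tdgf1 at the highest ratio the scale allows. The oocyte markers Bmp15 (0.32) and Tcl1 (-0.28) and the trophectoderm markers Gata3 (-0.19) and Krt18 (0.32) passed in neither direction. With array medians set to 0, 5 of the 9 were higher and 1 lower. All 4 measured fibroblast markers were lower (Sparc at -5.77). Of the 2 measured cumulus and granulosa markers Gja1 was lower, at -1.20, and Cyp11a1 passed in neither direction. Of 3 blood markers S100a8 was higher (0.57) and Ptprc lower (-2.64), and of 5 markers of adult organs Ins2 (0.70) and Syt1 (0.30) were higher. The third array of cycloheximide was closer to the third of strontium (correlation 0.883 across genes, which are not independent replicates) than to the other cycloheximide arrays (0.729 and 0.779). Among the Zfp genes, array 1 of strontium gave the highest or lowest value for 35 of 70 and array 3 of cycloheximide for 32, against 13 for array 2 of strontium. With array 3 of each group left out, a choice made after seeing the data, 33 Zfp genes were higher and 10 lower. The shares of all genes were not counted under that fit.

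Zfp740, a C2H2 zinc finger gene, had the highest level of all 70. Its 3 cycloheximide arrays were at 5.11, 5.12 and 3.96 and its strontium arrays at 4.31, 5.0 and 3.32. The third array of each group was the lowest, the groups overlapped, and the mean of 4.47 (SE 0.26) corresponds to 22.2-fold (limma adjusted p = 3.93e-05).

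Zfp598, the ubiquitin ligase that marks ribosomes stalled by collision, was at 2.81, 2.82 and 2.70 after cycloheximide and at 2.25, 2.59 and 2.36 after strontium. All cycloheximide arrays lay above all strontium arrays, and the mean level was 2.59 (SE 0.082; limma adjusted p = 7.57e-06 against 0). Zfp710, a zinc finger transcription factor, was at 2.63, 2.92 and 2.87 and at 2.16, 2.73 and 2.51. Its groups overlapped, and its mean was 2.64 (SE 0.10), or 6.22-fold.

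Several regulators of transcription followed. Zfp746 (PARIS), a repressor that the ubiquitin ligase parkin removes, was at 1.25, 1.60 and 1.76 after cycloheximide and 2.52, 1.93 and 1.54 after strontium. Its mean of 1.77 (SE 0.15) stands for 3.40-fold, with overlapping groups. Zfp217, which works in corepressor complexes with the demethylase Kdm1a, was at 1.5, 1.72 and 2.29 and at 1.14, 1.75 and 1.46, a mean of 1.64 (SE 0.14). Zfp219, a partner of Sox9 in cartilage, was at 2.13, 2.27 and 1.19 and at 1.44, 2.00 and 0.92. Array 3 of each group was again its lowest, and the mean was 1.66 (SE 0.20). All 3 genes were above 0 on 6 of 6 arrays.

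Zfp407, a large protein known to act with the nuclear receptor Pparg, was at 1.89, 1.81 and 2.36 after cycloheximide, but at -0.33, 0.99 and 1.67 after strontium. Only array 1 of strontium lay below 0, and the groups did not overlap; the mean was 1.40 (SE 0.26). The remaining genes at 2-fold or more were Zfp33b (1.86, or 3.63-fold) and Zfp655 (1.05), and Zfp185 (0.97) lay just below. Probes of each of these genes disagreed, and their values are given below.

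The other 22 Zfp genes called higher lay between 0.26 and 0.94, apart from Zfp185 at 0.97. In falling order they were Zfp758 (0.94), Zfp64 (0.85), Zfp790 (0.81), Zfp410 (0.71), Zfp423 (0.66), Zfp706 (0.65), Zfp28 (0.59), Zfp781 (0.58), Zfp516 (0.57), Zfp704 (0.57), Zfp266 (0.53), Zfp607a (0.53), Zfp445 (0.48), Zfp948 (0.47), Zfp804a (0.47), Zfp275 (0.44), Zfp160 (0.42), Zfp12 (0.40), Zfp318 (0.39), Zfp326 (0.34), Zfp438 (0.28) and Zfp101 (0.26). Most neighbours in this order differ by less than the SE of either. Zfp410 is known as a dedicated activator of the chromatin remodeller gene Chd4. Its arrays were at 1.00, 0.81 and 0.86 after cycloheximide and 0.48, 0.50 and 0.59 after strontium, without overlap, whereas Chd4 itself was at -2.87 ± 1.18 and -2.61 ± 1.03 (SD, n = 3 each). Zfp445, a KRAB protein that guards imprinted marks together with Zfp57, was at 0.35, 0.39 and 0.55 and at 0.48, 0.49 and 0.59, so that all 6 arrays lay in a narrow band above 0. It was named after its values were seen.

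Other genes with a known role lay on the same side. Zfp423, a cofactor of Smad proteins in BMP signalling, averaged 0.62 ± 0.16 in the cycloheximide arrays and 0.70 ± 0.19 in the strontium arrays (SD, n = 3 each). Zfp64 was at 0.71 ± 0.32 and 1.0 ± 0.082, and Zfp704 at 0.51 ± 0.24 and 0.63 ± 0.28. Zfp318, which controls alternative transcripts of immunoglobulin genes in B cells, was at 0.34 ± 0.23 and 0.45 ± 0.10, and Zfp326, which couples splicing to RNA polymerase II, at 0.23 ± 0.38 and 0.45 ± 0.17. Both lost their call with array medians set to 0: the Zfp318 level was then 0.22 and the Zfp326 level 0.16. Zfp326 also lost it without any 1 array but the first of cycloheximide, and without array 3 of each group (0.20).

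On the reference side, Zfp119a stood far below the others. Its cycloheximide arrays were at -1.61, -1.70 and -3.22 and its strontium arrays at -5.70, -3.35 and -5.65. All 6 were below 0, arrays 1 and 3 of strontium were lowest, and the mean of -3.54 (SE 0.38) corresponds to 11.6-fold (limma adjusted p = 0.000439). Zfp386, a KRAB zinc finger gene, was at -1.99, -2.33 and -1.59 and at -1.29, -2.45 and -1.69. Its groups overlapped throughout, with a mean of -1.89 (SE 0.18).

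Zfp622, the ribosome maturation factor, was at -0.94, -0.85 and -3.80 after cycloheximide and -0.82, -1.07 and -1.18 after strontium. Array 3 of cycloheximide lay far below the others. The mean was -1.45 (SE 0.40), and the Zfp622 level without that array was -0.96. The call (adjusted p = 0.019, limma) ended without any 1 of the strontium arrays, with an adjusted p of 0.0506 to 0.0568. Zfp592 was at -0.69, -0.30 and -1.76 and at -0.61, -1.89 and -1.16, wide within both groups, with a mean of -1.07 (SE 0.24).

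The 7 genes lower by less than 2-fold were Zfp90 (-0.86), Zfp934 (-0.82), Zfp941 (-0.78), Zfp947 (-0.78), Zfp40 (-0.70), Zfp148 (-0.52) and Zfp715 (-0.24). Zfp941 was at exactly 0 on arrays 1 and 2 of strontium, and at -0.79, -1.13, -1.67 and -1.09 on the others. Zfp148 (ZBP-89), which binds GC-rich promoters, was below 0 on 5 of 6 arrays and at 0.38 on array 3 of strontium; its call ended without any 1 of the other 5 arrays, where the Zfp148 level was -0.59 to -0.42. Zfp40 ranged from -1.03 to -0.12 and Zfp947 from -1.22 to -0.06; without array 3 of each group the Zfp40 level was -0.61 and no longer called.

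The 26 Zfp genes that passed in neither direction lay between -0.38 and 0.74. The highest were Zfp46 (0.74), Zfp647 (0.59), Zfp950 (0.44) and Zfp286 (0.34), each wide between arrays: Zfp46 ran from 0.019 to 1.71 and Zfp647 from -0.60 to 1.43. Zfp451, a SUMO ligase, was lowest at -0.38, with values of -1.26 on array 3 of cycloheximide and -1.10 on array 1 of strontium and between -0.073 and 0.10 on the other 4. Zfp809, the KRAB protein that recognises the primer binding site of retroviruses and recruits Trim28, was at exactly 0 on 5 arrays and at 0.55 on array 3 of cycloheximide, so its mean is not read as a level. Zfp689 was at exactly 0 on 4 arrays. The other 19 were Zfp2, Zfp13, Zfp53, Zfp59, Zfp113, Zfp184, Zfp248, Zfp280c, Zfp280d, Zfp292, Zfp397, Zfp503, Zfp553, Zfp628, Zfp668, Zfp846, Zfp954, Zfp955a and Zfp958, with means between -0.15 and 0.17.

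**Figure D2:**
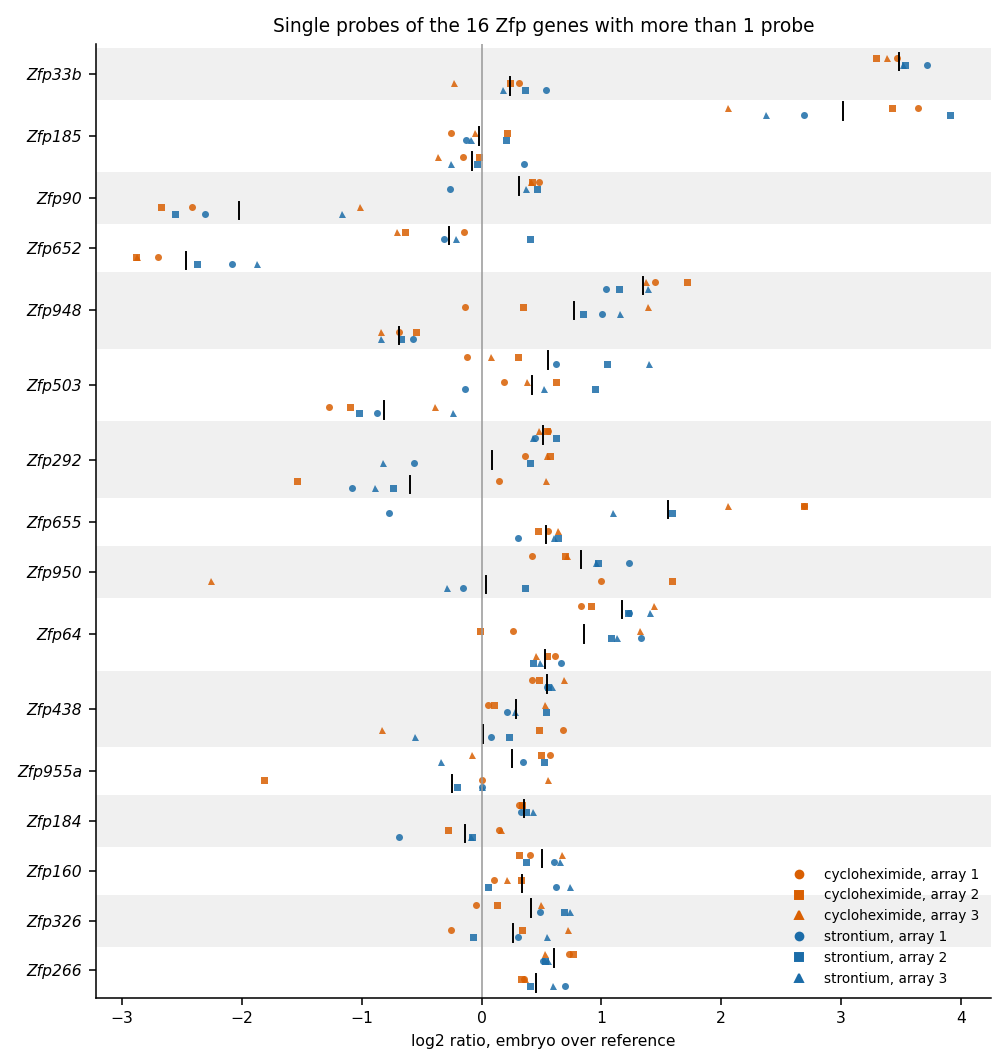
Level of each single probe, as log2 of embryo over reference on the horizontal axis, for the 16 Zfp genes with more than 1 probe; grey and white bands separate genes, the symbols show arrays and the black bar the mean of 6. The genes with the widest gap between probes are at the top: 1 probe of Zfp33b lies near 3.48 and its other near 0.23.

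Probes of 1 gene often differed more than the arrays did. Of the 16 Zfp genes with several probes, 8 had probe means more than 1 apart, and 7 had probes on opposite sides of 0. Zfp33b was at 3.38 ± 0.09 and 3.59 ± 0.11 (cycloheximide and strontium, SD, n = 3) for 1 probe and at 0.11 ± 0.29 and 0.36 ± 0.18 for the other. Zfp185, the actin-associated protein, was at 3.04 ± 0.86 and 2.99 ± 0.81 for 1 probe, while its remaining probes averaged -0.02 and -0.08 over 6 arrays. Its gene level of 0.97 thus rests on 1 of 3 probes.

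Zfp90, a KRAB gene, split the other way: 1 probe averaged -2.02 and the other 0.31. Zfp652, a repressor that works with the corepressor Cbfa2t3, was at -2.47 for 1 probe and -0.27 for the other, and Zfp948 at 1.35, 0.77 and -0.69 for its 3 probes. Zfp503, a gene of striatal development, averaged 0.053 from probes at 0.56, 0.42 and -0.82. By contrast the probes of Zfp266, Zfp326 and Zfp160 lay within 0.16 of each other. Some Zfp genes are close copies of each other; the sequences of the probes were not used here, so which transcripts each probe bound was not tested. With each probe tested on its own over all 21921 probes, 36 Zfp genes had a probe called higher and 13 a probe called lower. Zfp503 and Zfp948 counted on both sides, and a gene with several probes could be called by any of them. The share of all genes under this rule was not counted, so these counts are not read as a trait of Zfp genes.

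**Figure D3:**
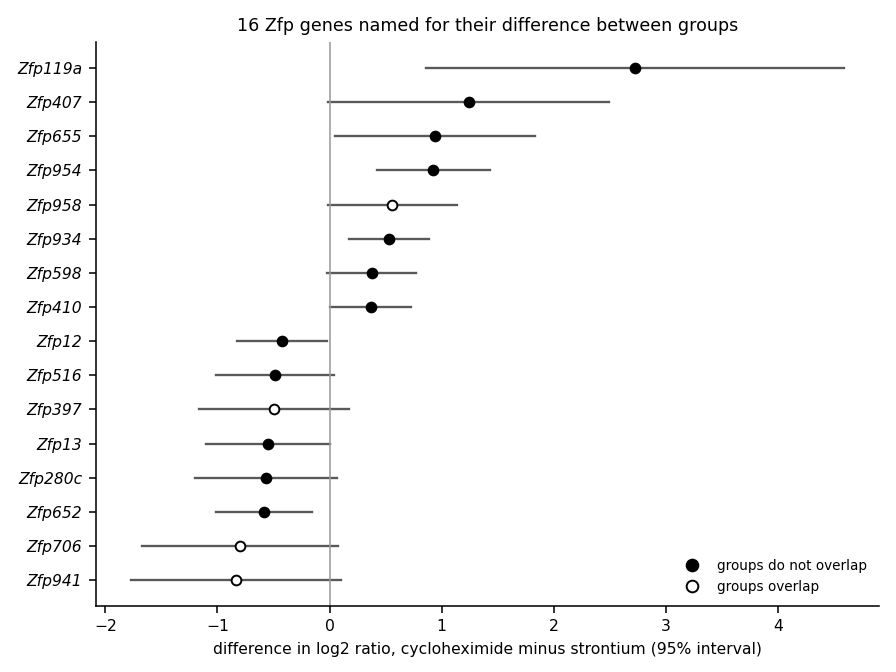
Difference between the groups in log2 ratio (cycloheximide minus strontium, horizontal axis) with its 95% interval for 16 Zfp genes, 8 on each side, chosen by the smallest unadjusted p. Filled circles mark genes whose 3 cycloheximide arrays all lie on 1 side of the 3 strontium arrays; the difference is largest for Zfp119a, at 2.72.

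Whether the way of activation alters these genes was asked by comparing the groups with each other. No Zfp gene passed the test: by limma 0 of 70 were higher and 0 lower after cycloheximide at an adjusted p of 0.05 over 4742 genes, where 0% of all genes passed; the smallest adjusted p of a Zfp gene was 0.605. Before adjustment, 5 were higher and 2 lower at 0.05, or 10% of the 70, against 6.64% of all genes (4.28% higher and 2.36% lower). This count of 7 was not stable: it was 4 without array 1 of cycloheximide, 11 without array 3 of each group and 18 with array weights. The groups did not overlap for 14 Zfp genes, 8 higher and 6 lower after cycloheximide, or 20.0%, against 11.9% of all genes. The median difference was -0.062, with 29 genes above and 41 below 0. Over all genes it was -0.033, with 2148 above and 2592 below 0. A typical 95% interval, not adjusted for the number of genes, extended 0.60 to each side, or 1.51-fold. For most members smaller changes could not be told from 0 at this number of arrays. Larger ones could also miss the adjusted threshold: Zfp119a, at a difference of 2.72, had a limma adjusted p of 0.717. The lack of calls therefore does not exclude changes above 1.51-fold.

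The smallest p belonged to Zfp954, a zinc finger gene with another Zfp gene beside it. It was at 0.59, 0.40 and 0.16 after cycloheximide and at -0.72, -0.26 and -0.65 after strontium. Every cycloheximide array was above 0 and every strontium array below, a difference of 0.93 (SE 0.21, 95% interval 0.42 to 1.43), with a limma adjusted p of 0.605. Zfp934 was low in both groups but less so after cycloheximide, at -0.59, -0.54 and -0.53 against -0.99, -1.09 and -1.18. Its difference was 0.53 (SE 0.15), and the spread within each group was at most 0.10 (SD).

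Zfp119a showed the widest gap, 2.72 (95% interval 0.86 to 4.59), between the values given above, with wide SDs of 0.90 and 1.34. Zfp407 differed by 1.24 (interval -0.01 to 2.49) and Zfp655 by 0.94 (0.05 to 1.84). In both, array 1 of strontium was the lowest: without it the Zfp407 difference was 0.69 and the Zfp655 difference 0.53. In Zfp655 the difference lay in 1 probe, which averaged 2.48 ± 0.36 in the cycloheximide and 0.63 ± 1.25 in the strontium arrays (SD, n = 3), whereas the other was at 0.55 ± 0.08 and 0.52 ± 0.18. Zfp410 (0.37, SE 0.15), Zfp598 (0.38, SE 0.16) and Zfp958 (0.56, SE 0.24) completed this side; all but Zfp958 had groups without overlap.

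On the other side, Zfp652 was at -1.43, -1.76 and -1.79 after cycloheximide and -1.20, -0.99 and -1.05 after strontium. The groups did not overlap and differed by -0.58 (SE 0.18); its 2 probes differed by -0.71 and -0.46. Zfp12 was at 0.14, 0.26 and 0.16 and at 0.65, 0.42 and 0.76, a difference of -0.42 (SE 0.16), also without overlap. The remaining differences were -0.55 for Zfp13, -0.48 for Zfp516, a partner of Prdm16 in brown fat, -0.57 for Zfp280c, -0.80 for Zfp706, -0.83 for Zfp941 and -0.49 for Zfp397. The groups overlapped for Zfp706, Zfp941 and Zfp397; of Zfp941, 2 of the 3 strontium values are ratios at 0, and with zeros as missing the Zfp941 difference was -0.11. Without array 3 of strontium the Zfp706 difference was -0.46, the Zfp397 difference -0.28 and the Zfp13 difference -0.36. Without array 3 of each group the Zfp397 difference was -0.14. Zfp280c lay at 0.15, 0.16 and -0.65 after cycloheximide, all below the strontium values of 0.51, 0.40 and 0.47, with array 3 the farthest; without it the Zfp280c difference was -0.30.

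**Figure D4:**
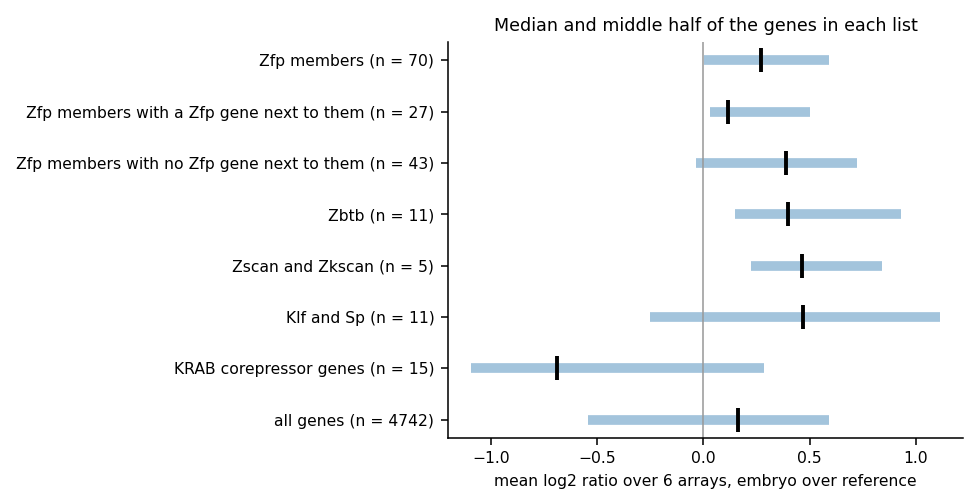
Median (black mark) and span between the quartiles (blue bar) of the gene levels in each list, as mean log2 of embryo over reference over 6 arrays. The 70 Zfp genes have a median of 0.27, all genes 0.16 and the KRAB corepressor genes -0.69.

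The partners of KRAB zinc fingers were looked at for comparison. Of 34 listed genes of this repression pathway 15 were measured. Of these, 6 were lower (40%), 3 higher (20%) and 6 passed in neither direction, against 26.3% lower and 39.3% higher over all genes. The median was -0.69 against 0.16. On single arrays the median of the 15 ran from -0.81 to -0.03, against 0.11 to 0.19 over all genes. With array medians set to 0, 2 were higher (13.3%) and 6 lower (40%), against 28.4% and 31.7% of all genes. Whether these shares differ from those of the Zfp genes was not tested. Trim28, the corepressor itself, averaged -0.75 ± 0.014 in the cycloheximide arrays and -0.79 ± 0.023 in the strontium arrays (SD, n = 3 each), and Setdb1 0.096 ± 0.37 and 0.03 ± 0.26. The lowest were Chd4 (-2.74), Dnmt1, the maintenance DNA methyltransferase (-2.42), and Cbx1, a heterochromatin protein (-1.99). The highest were Ehmt1, a histone methyltransferase (1.86), Dnmt3b, a de novo DNA methyltransferase (1.81), and Mbd3 (0.39). Smarcad1 (-1.41) and Sumo2 (-0.71) were also lower. None of the 15 differed between the groups at an adjusted p of 0.05 by limma, and 1 did at an unadjusted p under 0.05 (6.67%, against 6.64% of all genes): Cbx1, at -1.0 ± 0.57 and -2.97 ± 1.22.

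Other families named for zinc-binding domains had few measured members. The median, 0.16 over all genes, was 0.40 over 11 Zbtb genes, 0.46 over 5 Zscan and Zkscan genes and 0.47 over 11 Klf and Sp genes, the last including by its symbol Sp100, a nuclear body protein. In these 3 families 6 (54.5%), 2 (40%) and 5 (45.5%) genes were higher and 2 (18.2%), 1 (20%) and 2 (18.2%) lower, against 39.3% and 26.3% of all genes; on so few members these shares say little. The Zbtb range ran from Zbtb20 (-1.22) and Zbtb40 (-1.03) to Zbtb44 (1.02) and Zbtb17 (1.04), with Zbtb18 at 0.99 and Zbtb10 at 0.14. Zkscan2 was at 1.63, Zkscan14 at 0.84, Zkscan6 at 0.46, Zkscan1 at 0.22 and Zkscan8 at -1.51. Sp1, the general activator that binds the GC box, was at 6.24 ± 0.37 and 6.43 ± 0.21 (SD, n = 3 each), with 1 array at the upper limit of the ratio, so its mean is a lower bound. Klf16 (1.99) and Klf12 (1.74) followed, and Klf3 (-1.96), Klf7 (-1.26) and Sp4 (-0.27) were lowest. Over 3 Zc3h genes (Zc3hav1 at 0.37, Zc3h18 at 0.22 and Zc3h15 at 0.008) the median was 0.22. Over 14 Zfhx, Zfand, Zdhhc and Zfyve genes, a mixed group of zinc finger homeobox proteins, proteins with other zinc-binding folds and palmitoyltransferases, it was 0.063 (-0.11 with array medians set to 0), from Zfhx4 (-3.07), Zfyve26 (-2.44) and Zdhhc3 (-1.11) to Zfyve9 (0.26, at exactly 0 on 5 arrays), Zdhhc9 (0.47) and Zdhhc6 (1.05).

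Many Zfp genes stand in clusters in the mouse genome. In the annotation of GRCm38.p6, 27 of the 70 had another Zfp gene as the nearest protein-coding gene on at least 1 side, and 43 had none. The median level was 0.11 for the first and 0.39 for the second. With array medians set to 0 these were -0.059 and 0.22, so the sign of the first depends on the scaling. Of the 27 with such a neighbour, 17 lay within 0.5 of 0, and 1 was called higher at 2-fold or more (Zfp746) and 1 lower (Zfp119a). Of the 43 without, 18 lay within 0.5 of 0, and 8 were higher and 4 lower at that size. Over all genes 44.1% lay within 0.5 of 0, 11.2% were higher and 16.3% lower at that size, against 63%, 3.7% and 3.7% of the 27 and 41.9%, 18.6% and 9.3% of the 43. Zfp266 and Zfp846 are next to each other and were at 0.53 and 0.085; Zfp59 and Zfp607a, also adjacent, were at -0.044 and 0.53. These are counts over genes, which are not replicates, and no test was made.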

How the data were processed

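RNA was compared on 6 2-channel Agilent arrays, 3 per group. For 22132 probes the authors deposited a log10 ratio of the channels. The submitters' processing notes name Agilent's Feature Extraction software; not given in the sources used here: its version, background settings and dye normalization. All ratios lie between -2 and 2, a 100-fold limit that no probe of a Zfp gene reached, and were not centred. To read as log2 of embryo over reference, each was multiplied by 3.32 and its sign turned. The platform annotation named 6249 probes with 1 gene, 9389 with several and left 6494 unnamed. After 211 probes at 0 on all arrays were dropped, 6152 probes of 4742 genes were averaged per gene. Zeros on only some arrays stayed in as ratios of 0.

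limma 3.58.1 (lmFit, eBayes) in R 4.3.3 gave both tests, with Benjamini-Hochberg adjustment over all genes and a threshold of 0.05; it was tested on simulated data. Python 3.11.15, pandas 2.3.3, NumPy 2.4.6 and matplotlib 3.10.9 were used. Precision is limited by how many arrays there are. The Zfp genes, the lists and the rules were chosen with earlier results of these data known. The text names the 10 highest and 10 lowest called levels, the 8 smallest p-values for the difference on each side, 12 genes of known role and, per other list, the 3 highest and 3 lowest; other genes were named after their values were seen. Same-numbered arrays deviated together at correlations of 0.0672, 0.324 and 0.491, the last for the third arrays and the highest of all pairs. Differently numbered arrays ran from -0.465 to 0.437. These values do not settle whether the numbers pair arrays. They were not taken to do so, and the replicate block below gives the fit in which they do.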

Additional observations from a re-analysis of the deposited data

Results flagged for a closer look

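Zfp954 drew attention because every cycloheximide array lay above 0 and every strontium array below it, a difference of 0.93 on the log2 scale. The difference itself did not pass limma's test (adjusted p = 0.605). With array medians set to 0 it was 0.95, and without 1 array it ranged from 0.82 to 1.07. Groups of 3 arrays are too small for the test of a single array that stands apart.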

How the results depend on the processing

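The only alternative added after the values were known leaves out array 3 of each group. Over the alternatives fitted per gene, 23 to 35 Zfp genes were higher and 9 to 12 lower, with 27 to 32 and 9 to 10 when 1 array was left out. Shares of all genes were counted only for the main fit and with array medians set to 0, so these ranges describe stability alone. For the difference, 0 were called in either direction by limma under every alternative; the lowest adjusted p lay between 0.17 (array weights, whose estimate stopped before it converged) and 1.0. The replicate block gave 34 higher and 12 lower levels, 0 differences and a lowest adjusted p of 0.454. With array medians set to 0 the median level was 0.10 for Zfp, 0.23 for Zbtb, 0.046 for Zc3h and -0.11 for Zfhx, Zfand, Zdhhc and Zfyve genes, whose sign turned, and the Zfp809 level turned to -0.083. The median of the Zfp genes with a Zfp gene next to them also turned, to -0.059. Of 419 alternative levels of 28 named genes, 21 in 5 genes lost the call. Of 554 alternative differences of 37 genes, none of them called, 26 in 12 genes changed sign. Leaving out 1 array gave these ranges: Zfp185 difference -0.22 to 0.14, Zfp318 difference -0.19 to 0.019, Zfp386 difference -0.48 to 0.10, Zfp40 difference -0.085 to 0.38, Zfp423 difference -0.18 to 0.0083, Zfp451 difference -0.50 to 0.29, Zfp592 difference -0.034 to 0.73, Zfp622 difference -1.34 to 0.13, Zfp704 difference -0.25 to 0.043, Zfp90 difference -0.14 to 0.37 and Zfp947 difference -0.033 to 0.55. Other changes of sign came with quantile normalization (Zfp185 0.072, Zfp33b difference 0.0076, Zfp423 0.027), with centring by position (Zfp423 0.015), with array weights (Zfp185 0.034, Zfp451 0.35) and without array 3 of each group (Zfp451 0.51, Zfp622 0.053). The cause was not tested. Genes with and without a KRAB box were not compared, since no protein sequences were used here. Signal over background was not analysed here.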

Other observations

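Of the 92 probes of Zfp genes, 8 differed between the groups at an unadjusted p under 0.05, or 8.70%, against 6.02% of all 21921 probes; by limma 0 passed adjustment, and the lowest adjusted p was 0.663. Besides genes already named, they include 1 probe of Zfp503, which averaged 0.086 ± 0.22 in the cycloheximide and 1.02 ± 0.39 in the strontium arrays (SD, n = 3 each), a difference of -0.94, while its other 2 probes differed by -0.047 and -0.21. Another of the 8 is 1 probe of Zfp950, at 0.61 ± 0.16 and 1.06 ± 0.15, a difference of -0.45, while its other probe differed by 0.14. No probe of Zfp292 is among the 8. For that gene 1 probe was at 0.49 ± 0.11 and -0.33 ± 0.65 (limma unadjusted p = 0.0526) and another at 0.53 ± 0.039 and 0.50 ± 0.11. Its remaining probe was at -0.29 ± 1.10 and -0.90 ± 0.17. These probes were picked after their values were seen.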
